A study of Mus musculus with 3 samples.

Results

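Hypertrophic chondrocytes that express Col10a1 at a high level were described in the mandibular condyle of newborn (P0) mice. Cells of the P0 library were kept with at least 500 detected genes and at most 10% mitochondrial UMIs (unique molecular identifiers, 1 per captured RNA molecule). Col10a1-high cells were those with at least 3 Col9a1 and at least 10 Col10a1 UMIs per 10000 UMIs of the cell. This selected 557 of the 3999 kept P0 cells (13.9%, exact 95% interval 12.9 to 15), out of 16589 kept cells in the series. Since the cells were selected on Col10a1 and Col9a1, the levels of those genes are a description and not a finding, and every contrast inside the P0 library compares groups that the selection made.

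The study sampled condylar cartilage cells of wild-type C57BL6 mice at E16.5, P0 and 13 weeks (13w), when the upper joint cavity forms, when the joint is first used, and in the adult. Condyles of 7 to 20 mice were pooled within a stage, live cells were sorted by Calcein staining without DAPI, and a single 10x Genomics 3′ library was made per stage. With 1 library per stage, no difference below has a replicate check, and stage, pool and library cannot be told apart. Intervals are 95% and cover counting error only.

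Growth of the condyle relies on chondrocytes that stop dividing, enlarge and change their matrix before the cartilage is replaced by bone. Such hypertrophic chondrocytes secrete type X collagen, encoded by Col10a1, and many make Indian hedgehog, a secreted signal that acts on neighbouring chondrocytes and bone-forming cells. At the end of the sequence they make proteins of mineralised matrix and proteases that open cartilage to invading vessels.

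Comparisons within P0 used the rest of the kept cells (3442) and, as the closest class, the 1189 Col10a1-low chondrocytes, which had at least 3 Col9a1 and under 10 Col10a1 UMIs per 10000. The same rule found 249 of 4562 kept cells at E16.5 and 187 of 8028 at 13w. The median total was 35993 UMIs in Col10a1-high cells, 36590 in Col10a1-low chondrocytes and 15453.5 in all other kept cells, so the first 2 classes had similar depth. Their median mitochondrial shares were 2.99% and 3.22%. A doublet score put 41 of the 557 cells (7.36%) among the 134 highest-scored kept cells, which were 3.35% of all kept cells. The share was thus higher in the selected cells, and 516 remained without the 41. Cell barcodes shared between libraries numbered 10 to 15 per pair, and none was a Col10a1-high cell in both. Levels are given as CPM, the counts summed over a class per 1000000 of its summed UMIs. A gene was measured at 10 CPM or more in the higher class and was called higher or lower from a 2-fold ratio upward.

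Col10a1 ranged from 10.1 to 551 UMIs per 10000 in the selected cells, with a median of 57.0. There was no gap at the limit. The nearest cell inside had 10.1 and the nearest outside 9.92 per 10000, 20 selected cells lay between 10 and 12, and 40 Col9a1-positive cells lay between 8 and 10. At the upper end, 183 cells had 100 or more. Only 9 kept cells passed the Col10a1 limit without Col9a1, and none of these had a Col9a1 UMI.

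**Figure D1:**
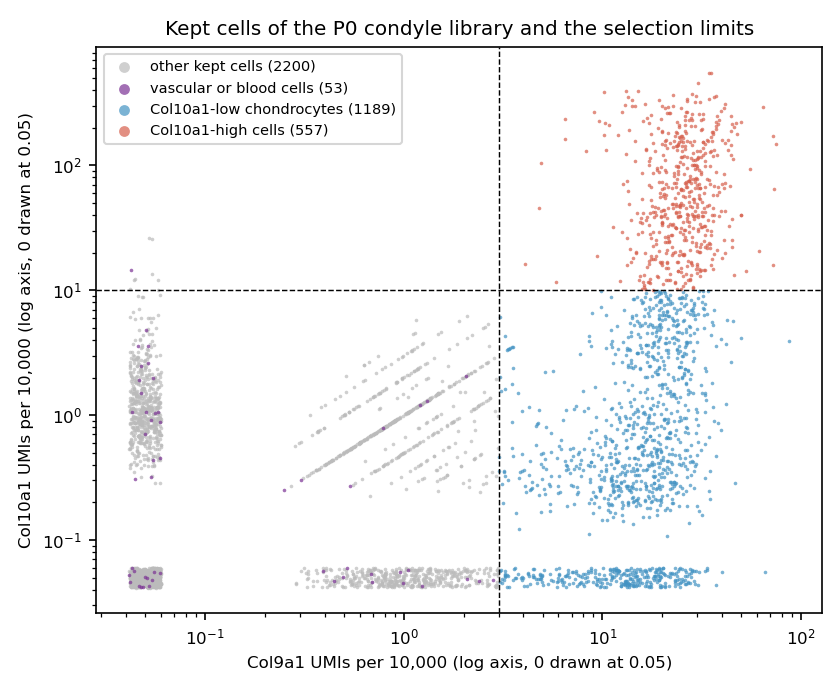
Each point is a kept cell of the P0 library, with Col9a1 (x axis) and Col10a1 (y axis) in UMIs per 10000 on log axes and cells at 0 drawn at 0.05 with a small random shift. Dashed lines are the limits of the selection, and the 557 Col10a1-high cells form the upper right group, continuous across the Col10a1 limit with the 1189 Col10a1-low chondrocytes.

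The label was set beside listed markers. Col10a1 stood at 7711 CPM in the selected cells and at 155 CPM in Col10a1-low chondrocytes. Matn1, encoding the cartilage matrix protein matrilin-1, stood at 544 CPM (534 to 554) against 101 (97.9 to 104). Hpgd, the enzyme that breaks down prostaglandins, stood at 577 CPM (567 to 588) against 249 (244 to 253), and the transcription factor gene Foxa2 at 53.7 CPM (50.6 to 57.0) against 16.3 (15.1 to 17.5). The level of Col10a1 follows from the selection, and the other 3 markers were higher in the selected cells. These 3 were given with the class, which was chosen with earlier results of these data known. Their levels are therefore a description and do not test the label. Of the 12 hypertrophic chondrocyte markers listed, which include Col10a1, most were also measured in Col10a1-low chondrocytes. Sp7, a transcription factor of bone and late cartilage, stood at 45.4 CPM in the selected cells against 62.5 CPM, under a 2-fold difference. Phospho1, the phosphatase that starts mineral formation, was below the level of a measured gene at 1.91 against 2.21 CPM.

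Most markers of vascular and blood cells were below the level of a measured gene. Endothelial markers summed to 14.6 CPM over 8 genes against 4373 CPM in the 53 vascular and blood cells of the library. Of these genes, Pecam1, Cdh5, Kdr and Emcn also helped to define the vascular and blood cells. No endothelial, tendon, skeletal muscle, macrophage, neutrophil, mast cell, B cell, T or NK cell, or erythroid marker was measured in the selected cells. The osteoblast and osteocyte list was not absent: 6 of its 10 genes were measured and it summed to 3331 CPM, mostly from Col1a1 at 2583 CPM, against 4872 CPM in Col10a1-low chondrocytes. Bglap, encoding the osteoblast protein osteocalcin, was at 1.32 CPM. The fibroblast and superficial list summed to 4150 CPM against 6582 in Col10a1-low chondrocytes and 10237 in the cells that were neither chondrocytes nor vascular or blood cells. The mural list summed to 708 CPM, against 719 in Col10a1-low chondrocytes and 107 in the vascular and blood cells, with 678 CPM from the proteoglycan gene Cspg4, while the mural genes Rgs5 and Myh11 were at 0.392 and 0.196 CPM. Of the remaining lists, 3 of 5 cycling and 1 of 7 osteoclast markers were measured. The part of these RNAs in the levels below was not tested.

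A background for shares of cells was read in the vascular and blood cells. After each cell was thinned to 5000 UMIs, 27.9% of vascular and blood cells (50.9% unthinned) still held a Col10a1 UMI, at a median total of 10581 UMIs. The corresponding shares were 33.4% (73.4% unthinned) of Col10a1-low chondrocytes and 100% of Col10a1-high cells. After thinning, the share in Col10a1-low chondrocytes was thus near that of vascular and blood cells. Their Col10a1 levels were further apart, at 155 and 47.2 CPM. Under the same thinning, Ihh was present in 67.2% of Col10a1-high cells (93% unthinned), 30.7% of Col10a1-low chondrocytes (66.1% unthinned) and 2.33% of vascular and blood cells (1.89% unthinned). Matn1 was present in 79.2%, 22.8% and 0% of these classes after thinning, and in 92.3%, 41.5% and 3.77% before it. For the 0 of 43 thinned vascular and blood cells, a limit of 3 cells allows a share of cells with a UMI of up to 6.98%. Thinning left out 33 Col10a1-high cells, 75 Col10a1-low chondrocytes and 10 vascular or blood cells with too few UMIs.

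The 250 bases before the transcription start are shown for Col10a1, which defined the class, and for Matn1, the given marker with the largest ratio to Col10a1-low chondrocytes. Sequences are from RefSeq on build GRCm38.p6, on the plus strand at chr10:34389731-34389980 and chr4:130944135-130944384. Capitals mark letters found on either strand by a search for RUNX (TGTGGT), FOXA (TGTTTAC), AP-1 (TGANTCA) and MEF2 core (TATTTATA) motifs.
Col10a1: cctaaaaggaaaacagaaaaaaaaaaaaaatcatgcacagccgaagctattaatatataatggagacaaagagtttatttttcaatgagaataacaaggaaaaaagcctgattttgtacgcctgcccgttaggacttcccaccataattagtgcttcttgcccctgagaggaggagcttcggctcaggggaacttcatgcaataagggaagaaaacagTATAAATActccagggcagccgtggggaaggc
Matn1: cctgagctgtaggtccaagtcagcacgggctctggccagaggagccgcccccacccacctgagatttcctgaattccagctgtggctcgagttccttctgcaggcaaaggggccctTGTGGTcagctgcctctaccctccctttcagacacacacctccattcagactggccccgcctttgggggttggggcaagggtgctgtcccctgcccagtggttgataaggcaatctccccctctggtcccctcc
The Col10a1 sequence holds the MEF2 core letters on the minus strand 32 bases before the start, a position where the same letters also spell the TATA box run TATAAA. The MEF2 core letters occur in 1.56% of 32851 promoters of this length. The Matn1 sequence holds the RUNX letters 134 bases before the start, which 14.0% of promoters hold. Neither Hpgd nor any of the 3 Foxa2 starts had a match. A match is a run of letters in this window only.

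Against all other kept cells, 439 of 7854 measured genes (5.59%) were higher and 821 (10.5%) lower in Col10a1-high cells. The highest ratios belonged to Ddit4l, an inhibitor of mTOR signalling, at 255 against 21.5 CPM, Tspan13, a tetraspanin membrane protein, at 100 against 8.86 CPM, and Wnk4, a kinase that controls ion cotransporters, at 112 against 10.5 CPM. Fam20c, the kinase that phosphorylates secreted proteins of mineralised tissue, stood at 121 against 12.2 CPM. Matn1, Mia, Loxl4, Ihh, Chad, Nog, Ccdc80, Bmp2, Agt, Plaat3 and Pcsk6 completed the 15 highest, with ratios from 9.12 for Matn1 down to 5.003 for Pcsk6. The 15 lowest began with Hist1h1b, a replication-dependent histone gene, at 3.82 against 130 CPM. They further held the fibrous matrix and growth factor genes Aspn (13.4 against 293 CPM), Fbn2 (7.59 against 120 CPM), Ptn (110 against 1457 CPM) and Vcan (10.8 against 110 CPM), and the division gene Top2a (16.5 against 132 CPM). Since most of the other cells were not chondrocytes, the contrast with Col10a1-low chondrocytes is followed from here on.

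Against Col10a1-low chondrocytes, 329 of 7500 measured genes (4.39%) were higher and 349 (4.65%) lower, and the median log2 ratio of all measured genes was -0.11. Tspan13 had a ratio of 8.54, from 100 against 11.8 CPM. Ddit4l had 8.50, from 255 (248 to 262) against 30.02 (28.4 to 31.7) CPM. Wnk4 and Fam20c followed with 6.68 and 6.60. Cited2, a transcriptional cofactor, stood at 102 against 18.3 CPM, Enpp2, which makes the lipid mediator lysophosphatidic acid, at 296 against 62.8 CPM, and Crim1, a transmembrane protein that binds BMPs, at 189 against 43.7 CPM. The secreted protein genes Mia (451 against 98.8 CPM) and Cst3 (1389 against 365 CPM) and the lysyl oxidase gene Loxl4 (288 against 75.3 CPM) were also among the 15 highest. In the cells that were neither chondrocytes nor vascular or blood cells, Tspan13 and Wnk4 were at 1.39 and 1.88 CPM. In the vascular and blood cells Tspan13 stood at 144 CPM, above the selected cells.

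Among the 15 lowest genes the largest ratio was that of Lgals1, the lectin galectin-1, which stood at 237 (230 to 244) against 1173 (1163 to 1183) CPM. The actin-binding and contractile genes Tpm2 (39.9 against 164 CPM), Tagln2 (94.2 against 385 CPM) and Acta2 (28.4 against 107 CPM) were each at least 3-fold lower. The tenascin genes Tnn (110 against 428 CPM) and Tnc (85.1 against 242 CPM) encode matrix proteins of forming and fibrous tissue. Ccnd1, cyclin D1, stood at 36.4 against 133 CPM, and Pdgfa, a growth factor for mesenchymal cells, at 45.3 against 168 CPM. Lmna, the nuclear lamina gene, stood at 188 against 552 CPM, and Fabp5, Lrrc17, Crip1, Angptl2, Ptn and Mt1 made up the rest.

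**Figure D2:**
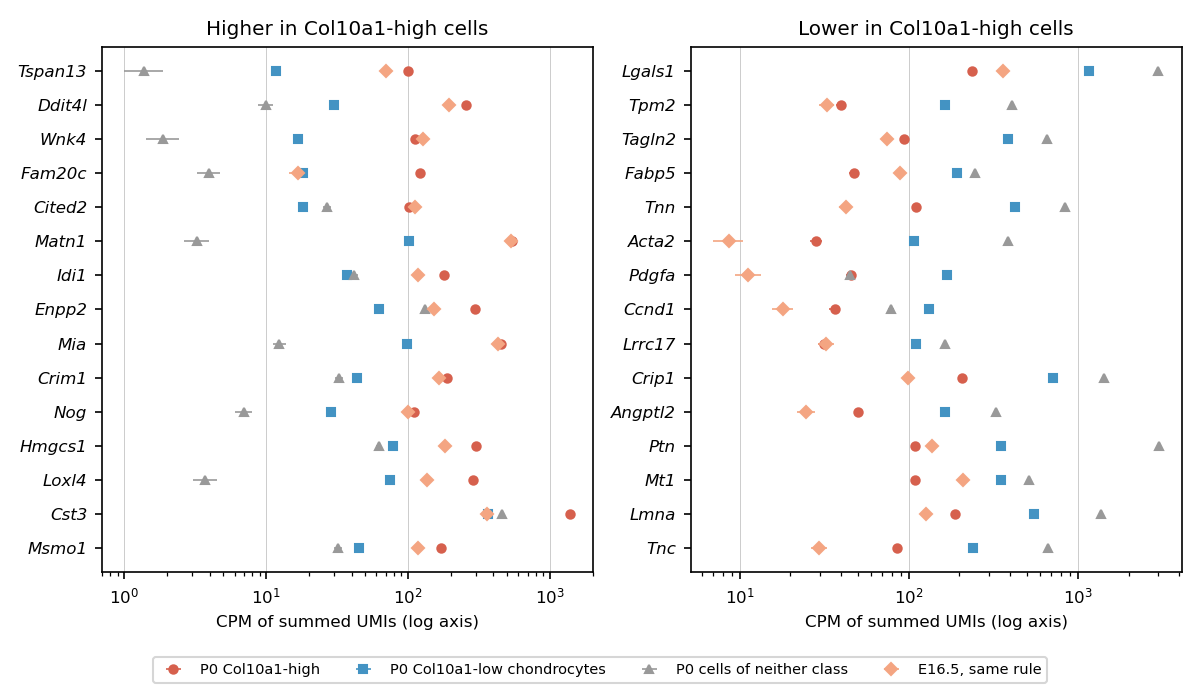
CPM of summed UMIs on a log axis for the 15 genes with the highest (left) and lowest (right) ratio of P0 Col10a1-high cells to P0 Col10a1-low chondrocytes, with 95% counting intervals. Fam20c was at 121 CPM in P0 Col10a1-high cells and 16.9 CPM in cells of the same rule at E16.5, while Matn1 was at 544 and 535 CPM.

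Cartilage matrix genes were mostly kept or higher. Of 23 measured members of the cartilage matrix list, 10 were called higher and 1 lower than in Col10a1-low chondrocytes, with a median log2 ratio of 0.86. Col2a1, the main cartilage collagen, stood at 27393 against 15044 CPM, and Acan, the large proteoglycan aggrecan, at 5444 against 2680 CPM. Comp, a matrix protein that binds collagen fibrils, stood at 2642 against 902 CPM, and Chad, the cell-binding protein chondroadherin, at 225 against 60.5 CPM. The lower gene was Fmod, which encodes the small proteoglycan fibromodulin, at 204 against 453 CPM. The list made up 7.05% of all UMIs in Col10a1-high cells and 3.94% in Col10a1-low chondrocytes, and Col10a1 itself 0.771% and 0.0155%.

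In the list of mineralisation and bone matrix, 6 of 17 measured genes were higher, 0 lower and 11 within 2-fold, with a median log2 ratio of 0.18. Alpl, the alkaline phosphatase that supplies phosphate for mineral, stood at 383 (375 to 392) against 111 (108 to 114) CPM. The acidic matrix proteins Spp1 (4263 against 1441 CPM) and Ibsp (3826 against 1712 CPM) were higher, as was Phex, an endopeptidase of phosphate balance, at 37.9 against 7.74 CPM. Dmp1, the osteocyte matrix protein, stood at 10.3 against 1.53 CPM, and the phosphate transporter Slc20a1 at 24.7 (22.6 to 26.9) against 11.0 (9.99 to 12) CPM. Ifitm5, a membrane protein of bone-forming cells, stood at 157 against 288 CPM, and Col1a1 at 2583 against 4027 CPM, both under a 2-fold difference.

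Among 13 measured matrix proteases and inhibitors, 2 were higher and 3 lower. Mmp13, the collagenase of late hypertrophic cartilage, stood at 40.8 (38.1 to 43.7) against 8.09 (7.26 to 8.99) CPM, and Adamts1, an aggrecan-cutting protease, at 129 against 36.2 CPM. Mmp14, Adamts5 and Htra1 were lower, with Mmp14 at 53.8 against 118 CPM. Mmp9, a gelatinase, stayed under the level of a measured gene, at 5.83 against 0.588 CPM.

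Of the signals, Ihh stood at 343 (335 to 352) against 93.3 (90.4 to 96.3) CPM. Pth1r, the receptor through which the ligand Pthlh holds back hypertrophy, stood at 1487 against 811 CPM, and Pthlh itself was at 1.13 and 0.847 CPM. Gli1, a target gene of hedgehog signalling, stood at 3.28 against 11.4 CPM, and Ptch1, the hedgehog receptor and another target, at 131 against 210 CPM. Of 8 measured genes of this pathway, Ihh was the 1 higher gene and Gli1 the 1 lower. In the BMP and TGF-beta list, 3 of 22 measured genes were higher and 1 lower. Bmp2 stood at 236 against 68.7 CPM, Bmp6 at 190 against 74.6 CPM and the BMP antagonist Nog at 111 against 28.5 CPM, while the ligand Bmp7 was the lower gene, at 20.2 against 47.1 CPM. The Wnt antagonist Frzb (304 against 100 CPM) and the ligand Wnt5b (104 against 46.0 CPM) were higher, and Dkk3 and Tcf7 lower, among 15 measured Wnt genes. In the prostaglandin list, 3 of 6 measured genes were higher. The cyclooxygenase Ptgs2, which starts prostaglandin synthesis, stood at 76.8 against 17.4 CPM, and Ptgis, which makes prostacyclin, at 631 against 238 CPM, beside Hpgd above. Vegfa, the vessel growth factor, stood at 21.9 against 10.5 CPM.

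Of 20 measured genes of the hypertrophy transcription factor list, 1 was higher (Foxa2) and 0 lower, a share close to that over all genes (4.39% higher). Foxa3 was at 62.7 against 31.7 CPM, just under 2-fold, and Mef2c, an activator of Col10a1, at 1060 against 557 CPM. Runx2, the master regulator of hypertrophy and bone, was at 165 against 130 CPM, and Sox9, the master regulator of cartilage, at 551 against 577 CPM.

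Division genes were lower as a group. Of 16 measured cell cycle genes, 14 were at least 2-fold lower and 0 higher, with a median log2 ratio of -1.85 beside -0.11 for all genes. Mki67 stood at 10.3 against 41.2 CPM and Cdk1, the mitotic kinase, at 12.1 against 50.1 CPM. After thinning to 5000 UMIs, 4.96% of Col10a1-high cells held a Mki67 or Top2a UMI, against 12.03% of Col10a1-low chondrocytes, 24.96% of the remaining non-vascular cells and 25.6% of vascular and blood cells. Unthinned, the shares were 22.1%, 29.9%, 33.2% and 28.3%. Of all 211 Mki67 counts in Col10a1-high cells, 78.7% came from 10 cells. Cdkn1c, the cell cycle inhibitor p57, was at 6696 against 4925 CPM and Cdkn1a, the inhibitor p21, at 495 against 281 CPM, both under 2-fold.

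Genes of cholesterol synthesis were higher as a group, and this list was added after Idi1, Hmgcs1 and Msmo1 had appeared among the 15 highest genes. Of 22 measured, 16 were called higher and 0 lower, with a median log2 ratio of 1.38. Hmgcs1, which makes the precursor of mevalonate, stood at 302 (294 to 309) against 77.9 (75.3 to 80.6) CPM. Idi1, an isomerase of the isoprenoid steps, stood at 180 against 37.2 CPM, Fdft1, which forms squalene, at 109 against 28.6 CPM, and Msmo1, a sterol oxidase, at 171 against 45.0 CPM. Insig1, a sterol sensor, stood at 107 against 28.8 CPM. Fdps, which makes farnesyl diphosphate, was at 432 against 370 CPM and Pmvk at 80.1 against 72.5 CPM, under 2-fold.

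Genes of protein folding and of glycolysis lay the other way, with few past 2-fold. Of 22 measured ER chaperone and stress genes, 3 were lower and 0 higher (median log2 -0.43). The 3 were Hyou1, Sdf2l1 and Creld2. The chaperone Hspa5 (BiP) stood at 622 against 1161 CPM. Of 21 measured glycolysis and hypoxia genes, 3 were lower and 0 higher (median log2 -0.54), namely the lactate exporter Slc16a3 (95.9 against 270 CPM) and the carbonic anhydrases Car9 (10.5 against 31.8 CPM) and Car12 (22.7 against 59.9 CPM). Map1lc3b, an autophagosome protein, stood at 1256 against 372 CPM. In the list of cell death and autophagy, 2 of 15 measured genes were higher and 0 lower.

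Among the Col10a1-high cells themselves, levels were compared between 4 bins of equal size, of cells ranked by Col10a1 (bin 1 the lowest, bin 4 the highest). The bins are ranges of a continuous measure, not cell types. Median Col10a1 was 16.9, 39.6, 85.5 and 208 UMIs per 10000 from bin 1 to bin 4, with 139 or 140 cells in each. The median total was lower in each later bin, at 43712.5, 41342, 37118 and 26654 UMIs, and the Spearman correlation of Col10a1 per 10000 with total UMIs over the 557 cells was -0.39. The median mitochondrial share was 2.80% in bin 1 and 3.31% in bin 4. The median number of detected genes was 5677, 5536, 5240 and 4465 from bin 1 to bin 4. The abundant noncoding RNA Malat1 had a log2 ratio of bin 4 to bin 1 of 1.17. Whether total UMIs or RNA quality had a part in the differences below was not tested. With every cell thinned to 5000 UMIs, 848 genes were higher and 1154 lower between bins 4 and 1, among them 429 of the 558 higher and 525 of the 713 lower genes given next.

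Between bins 4 and 1, 558 of 7453 measured genes (7.49%) were higher and 713 (9.57%) lower. Fam20c differed most among genes at 100 CPM or more. It stood at 20.3, 50.5, 79.5 and 460 CPM across the bins, so that bin 4, with 66.9% of all Fam20c counts, lay far above the other 3. Arsi, an arylsulfatase, stood at 325 against 27.9 CPM, and Plk2, a stress-responsive kinase, at 141 against 14.1 CPM. Cds1, Tspan13, Igfbp5, Serpini1, Maf and Ddit4l were also among the 10 highest. Ihh stood at 217, 229, 358 and 715 CPM, Alpl at 220, 335, 482 and 595 CPM, and Ibsp at 2172, 2823, 5304 and 6082 CPM. These 3 genes were thus higher in each later bin.

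Mmp13 behaved differently. Its level was 23.5, 30.5, 22.4 and 113 CPM, with no step before bin 4. Of all Mmp13 counts, 43.7% came from 10 cells, and 69 of the 557 cells held at least 3 Mmp13 UMIs, 35 of them in bin 4. Among those 69 cells, 52 also held at least 3 Fam20c UMIs, which 180 of the 557 cells did. Mmp9 and Dmp1 were rarer still. At least 3 Mmp9 UMIs were found in 5 of the 557 cells and at least 3 Dmp1 UMIs in 12. No cell was in both sets, but sets this small would seldom share a cell even if unrelated. The 10 cells with the most counts supplied 94.96% of the Mmp9 counts and 90.5% of the Dmp1 counts, so the class levels of these genes rest on a few cells.

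Of 17 measured mineralisation and bone matrix genes, 6 were higher in bin 4, 4 lower and 7 within 2-fold. Of the lower ones, Ifitm5 stood at 203, 182, 148 and 53.6 CPM, Col1a1 at 3044, 2880, 2570 and 1354 CPM, and Smpd3, a sphingomyelinase needed for normal bone mineral, at 650 CPM in bin 1 and 196 CPM in bin 4. The imprinted genes H19 (1543, 1237, 787 and 249 CPM) and Cdkn1c (7450, 7411, 6996 and 3866 CPM) were also lowest in bin 4. Fmod, Lgals1, Slc16a3, Ptn, Tgfbi, Tagln2, Srm, Tnn and Col15a1 were, with H19, the 10 genes of lowest ratio, from 7.63-fold lower for Fmod to 5.31-fold lower for Col15a1. Col2a1 hardly differed, at 25965 and 25699 CPM in bins 1 and 4.

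**Figure D3:**
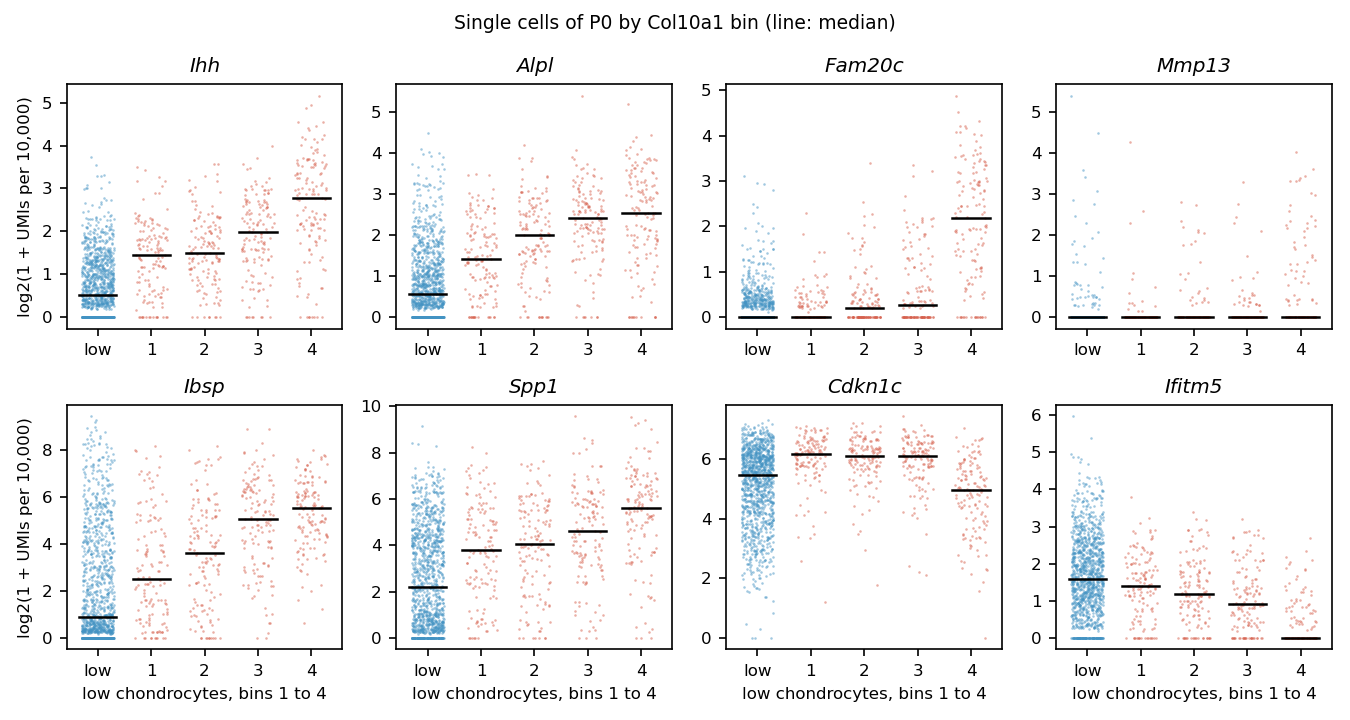
Each point is a P0 cell, with log2(1 + UMIs per 10000) of the gene on the y axis, and the x axis gives Col10a1-low chondrocytes (blue) and the 4 Col10a1 bins of Col10a1-high cells (red), with the median as a line. Ihh, Alpl, Fam20c, Ibsp and Spp1 had their highest median in bin 4, where Cdkn1c and Ifitm5 had their lowest, and most cells held no Mmp13 UMI.

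Lists of the secretory pathway held more lower than higher genes in bin 4, where 9.57% of all genes were lower. Of 22 measured ER chaperone and stress genes, 11 were at least 2-fold lower and 0 higher in bin 4 (median log2 -0.99, beside -0.11 for all genes), although Col10a1 itself made up 2.20% of UMIs there and 0.172% in bin 1. Hsp90b1, an ER chaperone, stood at 1237 and 388 CPM, Calr, the chaperone calreticulin, at 1900 and 699 CPM, and Pdia6, a disulfide isomerase, at 992 and 324 CPM in bins 1 and 4. Of 28 collagen modification and secretion genes, 13 were lower and 1 higher. Plod2, which hydroxylates collagen lysines, stood at 462 and 127 CPM, and Serpinh1, the collagen chaperone HSP47, at 2517 and 1150 CPM, while Loxl4, the higher gene, stood at 170 and 581 CPM. In chondroitin sulfate synthesis 7 of 19 genes were lower and 1 higher, with the sulfotransferase Chst11 at 184 and 52.7 CPM. In glycolysis and hypoxia 9 of 22 were lower and 2 higher. Ldha, lactate dehydrogenase, stood at 1118 and 342 CPM and Pkm, pyruvate kinase, at 859 and 259 CPM, while the oxygen-sensing genes Epas1 (2.15 and 23.4 CPM) and Vhl (7.11 and 18.4 CPM) were the higher ones.

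The cholesterol list again lay above, with 14 of 23 measured genes higher and 0 lower in bin 4 (median log2 1.2). Hmgcs1 stood at 166, 250, 409 and 458 CPM and Insig1 at 52.7, 83.8, 144 and 180 CPM. In cell death and autophagy 4 of 16 genes were higher and 0 lower. Map1lc3b stood at 709, 959, 1375 and 2475 CPM. These levels are of RNA only.

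**Figure D4:**
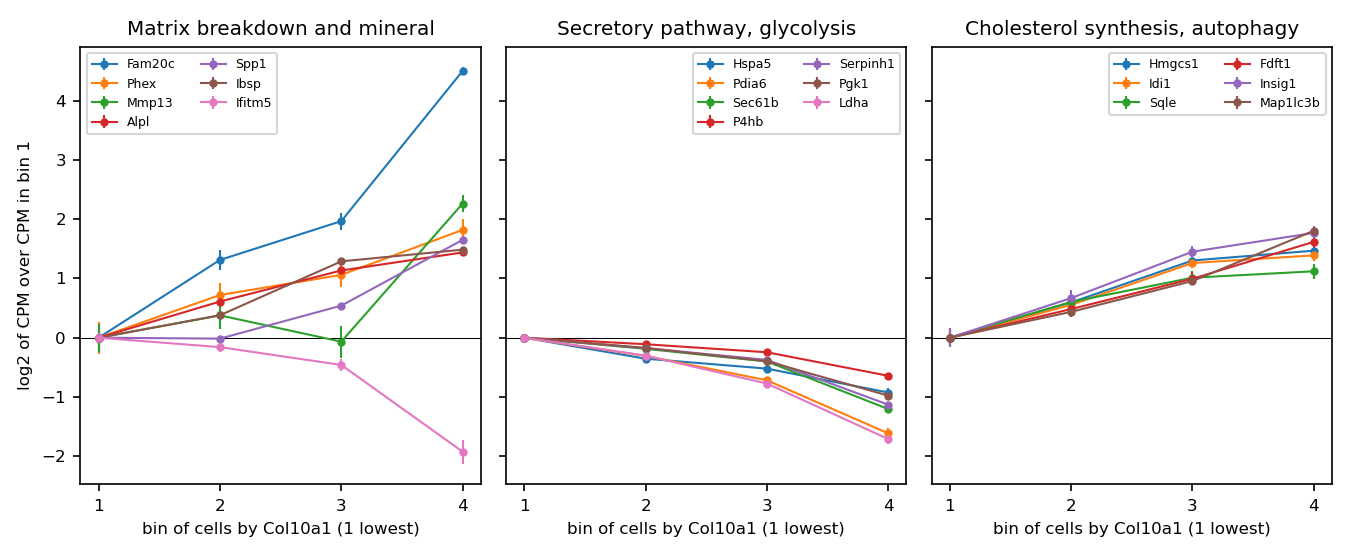
The y axis gives log2 of CPM over CPM in bin 1, and the x axis the bins of Col10a1-high cells by Col10a1, with 95% counting intervals that leave out the error of bin 1. Fam20c was 22.6-fold higher in bin 4, Ldha and Pdia6 were lower in each later bin, and Hmgcs1 and Map1lc3b higher in each later bin.

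Across the 557 cells, Spearman correlations with Col10a1 were computed with Col10a1 left out of the total, as a description over cells that share 1 library and differ in depth. Among genes at 100 CPM or more in these cells, Map1lc3b had the highest value at 0.68. Cst3 (0.61), the receptor gene Fgfr1 (0.60) and Arsi (0.59) followed. The lowest were Pdia6 (-0.61), Serpinh1 (-0.61) and Hsp90b1 (-0.60). Col9a1, which the rule used at a lower limit, had 0.14.

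The same contrast was then computed in the E16.5 library, where the same limits made both classes. Since the class was chosen with earlier results of these data known, the overlap is a description. There, 249 cells passing the same rule were set against 765 Col10a1-low chondrocytes, with 530 of 7714 measured genes (6.87%) higher and 1061 (13.8%) lower. Of the 329 genes higher at P0, 206 were higher at E16.5 too, which is 62.6% of the P0 list and 38.9% of the E16.5 list. Of the 349 lower genes, 275 were lower at E16.5 too, or 78.8% and 25.9% of the lists. Among the 15 named higher genes, 11 were past 2-fold in the same direction at E16.5, and among the 15 lower ones 14 were. At 13w, 8 of the 15 higher and 5 of the 15 lower named genes were. At 13w, with 187 cells against 1434, 137 of 7028 genes (1.95%) were higher and 311 (4.43%) lower, and 66 and 94 of the P0 genes were among them.

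Of the 329 genes higher at P0, 285 were measured at E16.5 and 257 of these had the same sign there. For 4 of the genes past 2-fold at both stages, the values were as follows. The log2 ratio to Col10a1-low chondrocytes was 3.09 at P0 and 3.86 at E16.5 for Ddit4l, 2.43 and 2.75 for Matn1, 1.88 and 2.26 for Ihh, and -2.31 and -2.61 for Lgals1. Cell cycle genes were lower at both, with 14 of 16 measured at P0 and 25 of 25 at E16.5.

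Cholesterol synthesis genes did not share this pattern. At E16.5 none of 23 was higher and 2 were lower, with a median log2 ratio of -0.48 against 1.38 at P0. Hmgcs1 stood at 184 CPM in Col10a1-high cells of E16.5 and 284 CPM in Col10a1-low chondrocytes of E16.5. Its P0 levels were 302 and 77.9 CPM. The larger difference between the stages was therefore in the Col10a1-low chondrocytes. Between those cells, 20 of 23 cholesterol genes were lower at P0 and 0 higher (median log2 -1.54), where over all genes 500 of 7764 (6.44%) were lower and 444 (5.72%) higher. In Col10a1-high cells, 2 of 23 were higher at P0 than at E16.5 and 0 lower (median log2 0.26). These comparisons share cell classes, and the stages are single libraries.

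**Figure D5:**
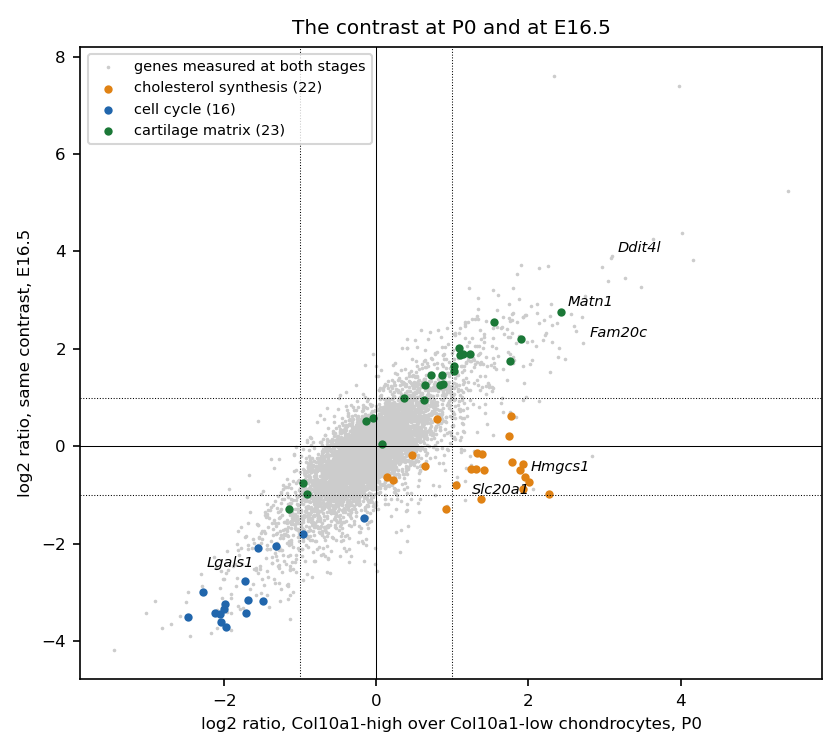
Each point is a gene, with the log2 ratio of Col10a1-high to Col10a1-low chondrocytes at P0 on the x axis and at E16.5 on the y axis, and dotted lines at 2-fold. Of 7091 genes measured at both stages, cell cycle genes lie at the lower left and most cartilage matrix genes at the upper right, while cholesterol synthesis genes lie to the right of 0 at P0 and mostly below 0 at E16.5.

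Col10a1-high cells of P0 were compared directly with cells of the same rule at E16.5. Of 7339 measured genes, 448 (6.1%) were higher at P0 and 296 (4.03%) lower, with a median log2 ratio of -0.01. Chad stood at 225 (219 to 232) against 23.1 (20.3 to 26.1) CPM and Fmod at 204 against 24.6 CPM. Fam20c stood at 121 (116 to 126) against 16.9 (14.6 to 19.5) CPM, and at 20.3 CPM in bin 1 of the P0 cells. The other genes of the 10 highest were Ecrg4, a secreted peptide precursor, at 455 against 55.6 CPM, Lars2, a mitochondrial tRNA synthetase, at 357 against 52.6 CPM, Vldlr, Postn, Bgn, Ctdspl and Id1. Of these 10 genes, Ecrg4, Postn, Bgn, Fmod and Lars2 were more abundant in the P0 cells that were neither chondrocytes nor vascular or blood cells, at 1056, 1725, 1190, 384 and 541 CPM, and Lars2 stood at 713 CPM in the vascular and blood cells. Id1 (317 CPM in the vascular and blood cells) and Vldlr (285 CPM in Col10a1-low chondrocytes) were also higher in another class. The part of free RNA in these values was not tested.

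The lower genes were led by Lipg, a secreted lipase, at 22.1 (20.1 to 24.2) against 161 (154 to 169) CPM. Slc2a1, the glucose transporter GLUT1, stood at 31.7 against 121 CPM, and the hypoxia-responsive mitophagy gene Bnip3 at 206 against 618 CPM. Of 21 measured glycolysis and hypoxia genes, 6 were lower at P0 and 2 higher (median log2 -0.60). Cttnbp2, Mettl26, Pak3, Pxylp1, Ckb, Pcp4, Josd2 and Katnal1 were the other genes of the 10 lowest, with Pcp4, a calmodulin-binding protein, at 103 against 370 CPM.

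By role, 6 of 17 measured mineralisation genes were higher at P0 and 0 lower. The stages differed in the same lists in Col10a1-low chondrocytes, where 7 of 15 mineralisation genes were higher at P0 and 0 lower, 8 of 23 BMP and TGF-beta genes higher and 0 lower, and 6 of 22 glycolysis and hypoxia genes lower and 1 higher (median log2 -0.63). Spp1 stood at 4263 against 1164 CPM and Slc20a1 at 24.7 against 6.61 CPM, whereas Ibsp stood at 3826 against 5718 CPM and Alpl at 383 against 206 CPM, both under 2-fold. Of the BMP and TGF-beta list, 6 of 22 genes were higher at P0 and 0 lower in Col10a1-high cells. Bmp2 stood at 236 against 109 CPM and Id1, a target of BMP signalling, at 259 against 64.1 CPM. Of 22 ER genes 4 were lower and 1 higher. Matn1 (544 against 535 CPM) and Ihh (343 against 370 CPM) were close at the 2 stages, with log2 ratios of 0.02 (-0.02 to 0.07) and -0.11 (-0.16 to -0.05). Of the other given markers, Hpgd stood at 577 against 723 CPM and Foxa2 at 53.7 against 23.9 CPM.

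In the 187 cells of the same rule at 13w, Matn1 was at 14.5 CPM (11.8 to 17.7) and Hpgd at 176 CPM, below both early stages. Alpl at 1646 CPM, Mmp13 at 150 CPM and Chad at 1982 CPM were above both, and Foxa2 at 58.3 CPM and Ihh at 538 CPM were at or above P0. The bone matrix genes Ibsp at 84266 CPM, Spp1 at 13134 CPM and Bglap at 114 CPM were also above both early stages. A level as high as that of Ibsp lowers the CPM of the other genes at 13w. Cdkn1c was at 756 CPM, against 6696 at P0, and H19 at 10.1 CPM against 1041. The median log2 ratio of P0 to 13w over all measured genes was 0.42. The order of the stages therefore differed from gene to gene, and for each gene a stage is 1 library.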

How the data were processed

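The deposited files hold UMI counts per gene and cell barcode, a matrix for each stage. Per the file headers the authors made them with Cell Ranger 6.1.2, and the submitters' processing notes name GRCm39. Cells under 500 genes or above 10% mitochondrial UMIs were removed. Counts were summed over the cells of a class and divided by their total (CPM). Intervals on CPM are exact Poisson, on ratios exact conditional binomial, on shares Clopper-Pearson, all at 95%, and they cover counting error only. No test was made, because each stage is 1 library. A gene was measured at 10 CPM in the higher class and called at a 2-fold ratio. The members and gene lists were chosen with earlier results of these data known, and the cholesterol synthesis list was added after values were seen.

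Named genes were the 15 (for stages and bins, 10) with the largest ratio in each direction at 100 CPM or more, without mitochondrial, ribosomal, haemoglobin, sex-linked, immunoglobulin and predicted genes, Col10a1 and Col9a1, plus members of the lists. Vascular and blood cells were kept cells with under 3 Col9a1 UMIs and at least 5 marker UMIs per 10000. The marker UMIs were summed over Pecam1, Cdh5, Kdr, Emcn, Ptprc, Tyrobp, Fcer1g and Laptm5. Scrublet (scanpy 1.11.5) made 0 automatic calls at P0, so the automatic call was not used. Cells of the highest scores, at the share expected from loading, were instead left out as an alternative. The ratio script was tested on simulated data. Analyses used python 3.11.15, numpy 2.4.6, scipy 1.17.1, pandas 2.3.3 and matplotlib 3.10.9. Before cells were removed, total counts were 98486931 in the P0, 103827875 in the E16.5 and 115836876 in the 13w library. Alternatives covered doublets, the mitochondrial limit, both marker limits, weighting of cells, thinning, scaling, the denominator and the minimum level. A few genes that the rule names are not reported here.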

Additional observations from a re-analysis of the deposited data

Results flagged for a closer look

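For 2 genes of the fixed and added lists, the ratio of Col10a1-high to Col10a1-low chondrocytes was past 2-fold in opposite directions at P0 and E16.5. Slc20a1, the phosphate transporter, had a log2 ratio of 1.17 at P0 and -1.10 at E16.5, from 24.7 against 11.0 CPM at P0 and 6.61 against 14.1 CPM at E16.5. Sqle, the squalene epoxidase of cholesterol synthesis, had 1.37 at P0 and -1.08 at E16.5, from 98.5 against 38.0 CPM at P0 and 61.0 against 129 CPM at E16.5. The difference between the stages was not tested, since each stage is 1 library.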

How the results depend on the processing

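The number of Col10a1-high cells was 456 to 693 over the limits tried. All 1300 values of named genes over the alternatives stayed past 2-fold in the same direction, and 381 of them moved by more than their counting interval. The named genes were picked for their large ratios, and a changed minimum level leaves a ratio as it is. Their staying past 2-fold therefore says little about other genes. Numbers of called genes moved by over 1.5 times as follows. Against the other kept cells, 701 genes were higher with every cell weighing the same, 704 with cells thinned to 5000 UMIs and 2115 with no minimum level, while 411 were lower at a minimum of 25 CPM and 3397 with none. Against Col10a1-low chondrocytes, 215 (25 CPM) and 2483 (no minimum) were higher, and 541 (thinned), 174 (25 CPM) and 1615 (no minimum) lower. Against E16.5, 266 (25 CPM) and 1987 (no minimum) were higher, and 490 (thinned), 162 (25 CPM) and 1450 (no minimum) lower. Between bins 4 and 1, 848 (thinned), 342 (25 CPM) and 1782 (no minimum) were higher, and 1154 (thinned), 422 (25 CPM) and 1833 (no minimum) lower. A changed minimum changes how many genes are compared; the cause of the thinned and equal-weight values was not tested. With no minimum, the higher share of calls against Col10a1-low chondrocytes was 60.6%, against 48.5%.

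Of 1088 list medians, 8 were counted as changed in sign. Medians with a small main value were left out of that count, so some of those may have changed sign too. Against the other kept cells, the FGF median was 0.68 at 25 CPM (main value -0.27), and the angiogenic and osteoclast signal median was -1.02 with equal weights, -1.27 thinned and -0.81 with no minimum (main value 0.72). Against Col10a1-low chondrocytes, the FGF median was 0.031 at 25 CPM (main value -0.26). Against E16.5, the prostaglandin median was 0.031 thinned and 0.51 with no minimum (main value -0.38). Between bins 4 and 1, the hedgehog and Pthlh median was -0.25 with no minimum (main value 0.30). TMM scaling moved the median of all genes against the other kept cells from -0.14 to -0.01. Leaving out Col10a1-high cells under 5000 UMIs was chosen after seeing the data. No paired analysis was possible because each stage is 1 library, and for that reason no replicate could be left out. The contrasts within E16.5 and within 13w were not recomputed under other settings. Neither were the comparisons of P0 with 13w and of Col10a1-low chondrocytes between stages.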
